A study of Canis lupus familiaris with 29 samples.

Results

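The p38 MAP kinases are the stress-activated branch of the mitogen-activated protein kinases, and the genes described here are the 4 that encode the kinases (MAPK11, MAPK12, MAPK13 and MAPK14) and the 2 that encode the kinases which switch them on (MAP2K3 and MAP2K6). They were looked up by gene name in the table of exon read counts, and 5 of the 6 were found among the 30951 genes listed, while MAPK11 was not found under this name. Genes with no name were not assigned to it, and whether one of those beside MAPK12 is MAPK11 was not tested. The set was chosen from measured values, because MAPK12 had been seen to be higher in tumors than in normal medulla, and its relatives and activators were added. The levels in tumors against normal medulla are therefore a description of the 5 genes, in which no gene is given a p, and the count past the threshold stands only beside the share of all genes.

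Chromaffin cells make catecholamines, and their tumors are called pheochromocytomas in the adrenal medulla and paragangliomas in paraganglia (together PPGLs). These tumors were compared with normal adrenal medullas (NAMs) to ask which pathways differ between tumor and normal tissue. RNA sequencing was performed on 10 NAMs of healthy dogs and 19 PPGLs of client-owned dogs, of which 7 were assigned to PPGL group 1 and 12 to PPGL group 2. The authors drew these groups from a principal component analysis of the same samples, so a p between the groups describes that split. Ages, breeds, genotypes and treatments were not used here, and each sample was bulk tissue of 1 dog, in which fewer cells of a type and less RNA per cell cannot be told apart. Total counts per sample were 19258054 to 35918182 in NAMs (median 25494016.5) and 18208718 to 31919833 in PPGLs (median 22044100), so that 3 counts, taken as the smallest level these depths can show, corresponded to between 0.0779 and 0.164 CPM (counts scaled to library size) for the NAMs and between 0.0895 and 0.175 CPM for the PPGLs.

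In the p38 pathway, stress and cytokine signals pass through MAP3 kinases to MKK3 and MKK6, the products of MAP2K3 and MAP2K6, which phosphorylate p38 on a threonine and a tyrosine of its activation loop, and dual-specificity phosphatases remove these phosphates. The p38 kinases in turn activate MAPKAP kinases and transcription factors and prolong the life of inflammatory mRNAs. MAPK14 (p38 alpha) is found in most tissues, MAPK12 (p38 gamma) is known for its high level in skeletal muscle and MAPK13 (p38 delta) for its level in epithelia and endocrine tissue, and because activity rests on phosphorylation, an mRNA level does not measure it.

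Some libraries stood apart from the rest in the chromaffin markers TH or CHGB. TH, which encodes the rate-limiting enzyme of catecholamine synthesis, was at 10.8 CPM in tumor 3 and 2.15 CPM in tumor 5 of PPGL group 1 and at 32.3 CPM in tumor 7 of PPGL group 2, while each other sample had at least 859 CPM. Tumor 7 of PPGL group 1 had 27.1 CPM of CHGB, a chromogranin of secretory granules, and its summed chromaffin markers, at 7781 CPM, were the lowest of all samples. Over the list, 10 of 11 chromaffin genes were found (CHGA was not found under this name), 2 were higher and 1 was lower in PPGLs, beside 22.3% and 15.2% of all genes tested, and CHGB was the most abundant. The summed chromaffin markers reached 18080 to 97728 CPM in the NAMs (median 32490.1) and at most 118956 CPM in the PPGLs (median 41595). Values are also given below without these 4 tumors, a choice made on TH and CHGB after the data were seen. Other markers of the list set some of these tumors apart, but not all 4. DDC was at 0.285 CPM in tumor 3 and 0.358 CPM in tumor 5 of PPGL group 1. Each other sample had at least 58.4 CPM of it. DBH was lowest in the same tumors, at 2562 and 2166 CPM. PNMT was lowest in tumors 7, 5 and 3 of PPGL group 1 (11.6, 22.4 and 56.8 CPM), close to 62.5 CPM in tumor 11 of PPGL group 2. Tumor 7 of PPGL group 2 had 62027 CPM of summed chromaffin markers, above the NAM median. SLC18A2, a vesicle transporter gene of the list, was at 0.239 CPM in tumor 5 of PPGL group 1. It was also at 0.131 CPM in tumor 1 and 0.235 CPM in tumor 2 of that group. In tumor 9 of PPGL group 2 it was at 1.22 CPM, and tumors 1, 2 and 9 named here were kept.

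MAPK12 encodes p38 gamma, which ends in a motif that binds PDZ domains. The gene (ENSCAFG00000000685) lies on chromosome 10 at 16986828 to 16994937, on the plus strand of CanFam3.1, with 1488 bp of exon. Its TMM-normalized level was 0.218 to 2.09 CPM in NAMs (median 1.03), 0.0583 to 52.4 CPM in PPGL group 1 (median 11.8) and 0.0421 to 57.2 CPM in PPGL group 2 (median 5.53). The NAMs were all low, and 15 of 19 PPGLs lay above every NAM, 5 of the 7 in group 1 and 10 of the 12 in group 2. The highest levels were in tumor 7 of PPGL group 2 (57.2 CPM), tumor 3 of PPGL group 1 (52.4 CPM) and tumor 8 of PPGL group 2 (33.1 CPM). At the other end, tumor 6 of PPGL group 1 and tumor 10 of PPGL group 2 had 1 count each, below every NAM and under the floor of 3 counts.

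NAMs averaged 1.07 ± 0.620 CPM of MAPK12 (SD, n = 10) while PPGLs averaged 15.3 ± 17.3 CPM (SD, n = 19), with a log2 FC of 3.82 (SE 0.84). The NAM values rest on 4 to 55 counts a library. Without the 4 tumors low in TH or CHGB, 11 of 15 PPGLs lay above every NAM, at a mean of 9.27 ± 10.8 CPM (SD, n = 15), and the log2 FC was 3.11 (SE 0.79). Side by side, against the same NAMs, the log2 FC was 3.91 (SE 0.92) for PPGL group 1 and 3.77 (SE 0.87) for PPGL group 2.

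Since MAPK12 is known from skeletal muscle, markers of that tissue are given beside it. All 12 were found and 5 passed the filter on low counts, of which 1 was lower in PPGLs by edgeR's quasi-likelihood test and 4 were not past the threshold. The muscle-determining factor MYOD1 and the fast-fiber troponin TNNI2 were at 3 counts or fewer in every sample. Summed muscle markers were 88.1 to 154 CPM in the NAMs (median 100.1) and 48.9 to 486 CPM in the PPGLs (median 72.5). MYH7, a slow myosin heavy chain, was the most abundant over all samples. In NAMs the mean was higher for ACTA1 (42.4 CPM) than for MYH7 (33.4 CPM), but the medians were 31.1 and 32.1 CPM. NAM 3 had 113 CPM of ACTA1. The highest sum was in tumor 3 of PPGL group 1, of which MYH7 made up 473 CPM, a tumor that was also next to the highest in MAPK12. MYH7 was next highest in tumors 5 and 7 of PPGL group 1 (167 and 114 CPM) and tumor 7 of PPGL group 2 (55.4 CPM). These 4 are the tumors low in TH or CHGB, and each other sample had at most 42.1 CPM. They had 16.4 to 57.2 CPM of MAPK12, while tumor 8 of PPGL group 2 had 33.1 CPM of it with 27.5 CPM of MYH7. Over the 19 PPGLs, MAPK12 and the mean of the muscle list had Pearson r = -0.0995 and Spearman rho = -0.0737. The r was 0.220 in PPGL group 1, -0.448 in PPGL group 2 and 0.267 without the 2 tumors farthest in the muscle list. The part of muscle in the MAPK12 level was not tested beyond this.

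MAPK13 encodes p38 delta. The gene (ENSCAFG00000001382, 1456 bp of exon) lies on chromosome 12 at 5239750 to 5248196, and MAPK14 ends 19147 bp before it on the same strand. Its level was 38.04 to 126 CPM in NAMs (median 66.8), 11.2 to 132 CPM in PPGL group 1 (median 59.7) and 33.1 to 188 CPM in PPGL group 2 (median 113). The groups overlapped broadly, with 5 PPGLs above and 4 below every NAM, and the lowest was tumor 2 of PPGL group 1. NAMs averaged 69.8 ± 28.96 CPM (SD, n = 10) while PPGLs averaged 91.1 ± 51.5 CPM (SD, n = 19), a log2 FC of 0.38 (SE 0.32) that became 0.56 (SE 0.31) without the 4 tumors low in TH or CHGB and 1.05 (SE 0.41) with the cortical covariate described below. Against the same NAMs, the log2 FC was -0.12 (SE 0.38) for PPGL group 1 and 0.62 (SE 0.33) for PPGL group 2.

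MAPK14 encodes p38 alpha. The gene (ENSCAFG00000001378, 2527 bp of exon) spans 5146037 to 5220603 of chromosome 12. Its level was 96.0 to 173 CPM in NAMs (median 128), 89.8 to 168 CPM in PPGL group 1 (median 142) and 92.9 to 213 CPM in PPGL group 2 (median 139.8). The groups overlapped, with 2 PPGLs above and 2 below every NAM. The log2 FC of 0.08 (SE 0.14) between PPGLs and NAMs was smaller than its error, and it was 0.10 (SE 0.15) without the 4 tumors low in TH or CHGB.

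MAP2K3 encodes MKK3. The gene (ENSCAFG00000018530, 2074 bp of exon) lies on chromosome 5 at 42700836 to 42761736. Its level was 80.0 to 200.5 CPM in NAMs (median 111), 14.1 to 76.7 CPM in PPGL group 1 (median 60.4) and 44.6 to 136 CPM in PPGL group 2 (median 77.3). All tumors of PPGL group 1 lay below the lowest NAM, while PPGL group 2 overlapped the NAMs, and 14 of 19 PPGLs in all lay below every NAM. Tumor 7 of PPGL group 1, one of those low in chromaffin markers, stood far below the rest at 14.1 CPM. NAMs averaged 130.2 ± 46.4 CPM (SD, n = 10) while PPGLs averaged 70.4 ± 29.8 CPM (SD, n = 19), a log2 FC of -0.89 (SE 0.23). Without the 4 tumors low in TH or CHGB, 10 of 15 lay below every NAM and the log2 FC was -0.77 (SE 0.20). Against the same NAMs, it was -1.21 (SE 0.29) for PPGL group 1 and -0.73 (SE 0.24) for PPGL group 2.

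MAP2K6 encodes MKK6, the other dual-specificity activator of p38. The gene (ENSCAFG00000010758, 1130 bp of exon) lies on chromosome 9 at 15840983 to 15952026. Its level was 0.153 to 2.03 CPM in NAMs (median 0.835), 0.642 to 8.71 CPM in PPGL group 1 (median 3.68) and 0.569 to 8.23 CPM in PPGL group 2 (median 3.32). It was low everywhere, with 4 to 52 counts in a NAM and 11 to 211 in a PPGL, yet 15 of 19 PPGLs lay above every NAM and 0 lay below. NAMs averaged 1.05 ± 0.626 CPM (SD, n = 10) while PPGLs averaged 3.71 ± 2.25 CPM (SD, n = 19), a log2 FC of 1.81 (SE 0.40). Without the 4 tumors low in TH or CHGB, 11 of 15 lay above every NAM and the log2 FC was 1.68 (SE 0.43). The log2 FC against the same NAMs was 2.06 (SE 0.47) for PPGL group 1 and 1.65 (SE 0.42) for PPGL group 2.

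**Figure D1:**
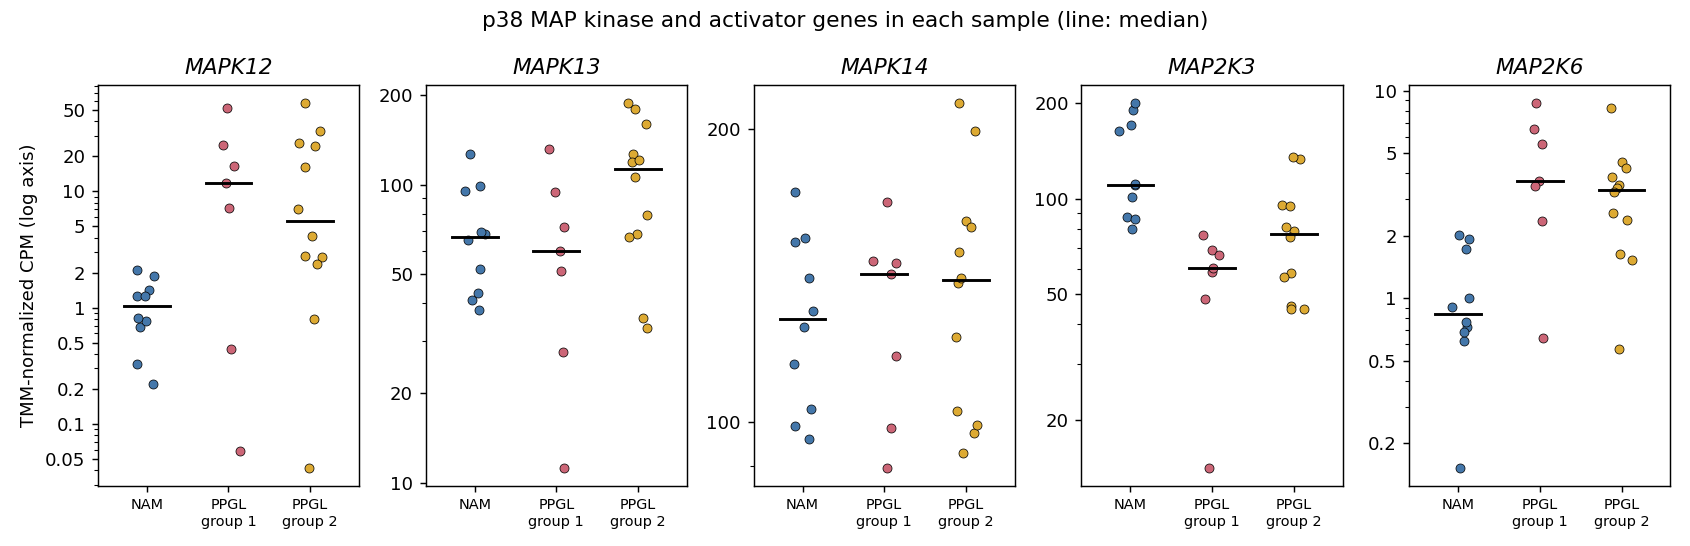
TMM-normalized CPM (log axis, a scale of its own for each gene) of the 5 genes in each sample (10 NAMs, 7 group 1 and 12 group 2 PPGLs), with 1 point a sample and a line at the group median. MAPK12 and MAP2K6 lay above every NAM in 15 of 19 PPGLs each, MAP2K3 lay below every NAM in 14, and MAPK13 and MAPK14 overlapped.

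All 5 genes passed the filter on low counts. Of these, 2 were past an FDR-adjusted p of 0.05 as higher in PPGLs (MAPK12 and MAP2K6) and 1 as lower (MAP2K3), while of all 14766 genes tested 37.5% were past it, 22.3% as higher and 15.2% as lower. With the cortical covariate described below, MAP2K3 and MAP2K6 were no longer past it, and over all genes the number past it fell from 5541 to 2170. As the genes were chosen with this comparison known, nothing is read from these counts.

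Cortical markers moved with the same comparison. Of 11 genes of adrenal cortex, 10 were found (CYP11B2 was not found under this name) and 9 were lower in PPGLs, and their summed level was 13289 to 64404 CPM in NAMs (median 34721) and 52.0 to 32184 CPM in PPGLs (median 1164). The most abundant was CYP17A1, a steroid hydroxylase. With the mean log2 CPM of these genes as a covariate, the log2 FC was 2.97 (SE 0.95) for MAPK12, 1.05 (SE 0.41) for MAPK13, 0.06 (SE 0.20) for MAPK14, -0.39 (SE 0.32) for MAP2K3 and 1.37 (SE 0.51) for MAP2K6. Cortical tissue and tumor state are confounded in these samples and cannot be told apart for any of the 5 genes.

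Divided by exon length, the levels can be compared between genes. In NAMs, the order was MAP2K3 (62.8 ± 22.3 CPM per kb), MAPK14 (51.0 ± 10.3), MAPK13 (47.9 ± 19.9), MAP2K6 (0.933 ± 0.554) and MAPK12 (0.718 ± 0.417), each as mean ± SD over 10 samples. The first 3 did not differ beyond their spread, and neither did the last 2, but every NAM had more MAPK13 than MAP2K6 per kb. In PPGLs, the order was MAPK13 (62.6 ± 35.4 CPM per kb), MAPK14 (53.8 ± 13.9), MAP2K3 (34.0 ± 14.4), MAPK12 (10.3 ± 11.6) and MAP2K6 (3.29 ± 1.99), over 19 samples. MAPK13 exceeded MAPK14 in 11 of the 19 tumors and MAPK12 exceeded MAP2K6 in 10, so these neighbors were not separated, while MAPK14 exceeded MAP2K3 in 14 and MAP2K3 exceeded MAPK12 in 17.

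The make-up of the 3 kinase transcripts found shifted accordingly in some tumors. These shares leave out MAPK11, and counting any further transcript would lower them (the unnamed gene next to MAPK12, ENSCAFG00000049665, averaged 11.5 CPM per kb in NAMs and 23.2 in PPGLs). Per kb of exon, MAPK12 was 0.166 to 1.70% of the sum of MAPK12, MAPK13 and MAPK14 in NAMs (median 0.746%) and 0.0233 to 32.4% in PPGLs (median 5.10%). Its share exceeded every NAM in 13 of 19 PPGLs, and in tumor 7 of PPGL group 2 (32.4%) and tumor 3 of PPGL group 1 (31.5%) it was far larger than in the rest, followed by tumor 7 of PPGL group 1 (17.9%). Those 3 are among the tumors low in TH or CHGB, and without the 4 such tumors the highest share was 12.9% and the median 2.51%. MAPK13 made up 36.4 to 58.6% of the sum in NAMs (median 46.2%) and 9.76 to 67.6% in PPGLs (median 50.3%). The tumor at the low end, tumor 2 of PPGL group 1, had 84.2% MAPK14. The summed level of the 3 kinases was 65.1 to 148 CPM per kb in NAMs (median 91.9) and 60.0 to 194 in PPGLs (median 119), with broad overlap.

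**Figure D2:**
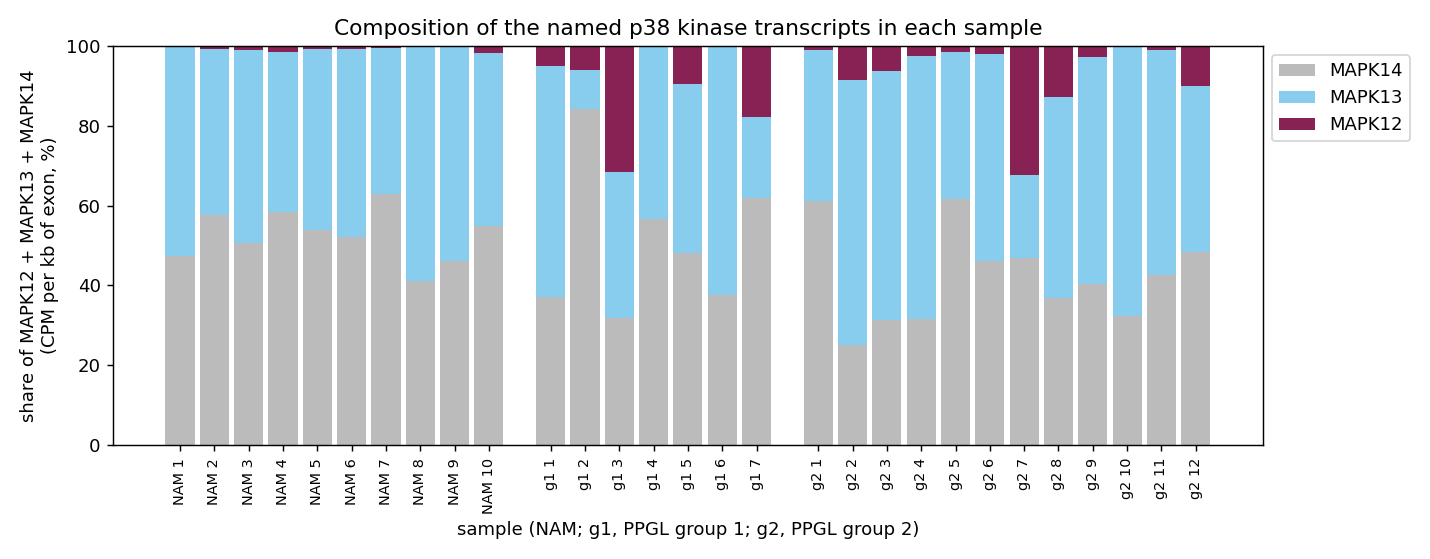
Share of MAPK14, MAPK13 and MAPK12 in the sum of the 3 transcripts (CPM per kb of exon, in percent; stacked bars) in each of the 29 samples. MAPK12 was at most 1.70% in NAMs and reached 32.4% in tumor 7 of PPGL group 2 and 31.5% in tumor 3 of PPGL group 1.

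Among the activators, MAP2K6 was 0.171 to 3.89% of the sum of MAP2K3 and MAP2K6 per kb in NAMs (median 1.501%) and 1.27 to 41.9% in PPGLs (median 9.31%). MAP2K3 was thus the main activator transcript in every sample, and the share of MAP2K6 exceeded every NAM in 15 of 19 PPGLs. It was highest in tumor 7 of PPGL group 1 (41.9%), where MAP2K3 was lowest, and then in tumor 5 of PPGL group 2 (24.8%) and tumor 2 of PPGL group 1 (18.9%). The summed level of the 2 activators was 39.4 to 98.2 CPM per kb in NAMs (median 54.1) and 11.7 to 68.3 in PPGLs (median 32.6), and 10 of 19 PPGLs lay below every NAM.

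Between the PPGL groups, 0 of the 5 genes were past an FDR-adjusted p of 0.1 by edgeR's quasi-likelihood test, where 6.92% of 14666 genes were, 3.97% as higher and 2.95% as lower in group 1. Without adjustment, 0 were under a p of 0.05, and DESeq2's Wald test and the Mann-Whitney U-test also called 0. The log2 FC of group 1 against group 2 was 0.12 for MAPK12 (SE 0.96, FDR-adjusted p = 0.960), and the groups covered nearly the same range. MAPK13 had the largest difference relative to its error, with a log2 FC of -0.73 (SE 0.41, FDR-adjusted p = 0.344) and a mean of 64.0 ± 40.5 CPM (SD, n = 7) in group 1 and 107 ± 52.0 CPM (SD, n = 12) in group 2. MAPK14 gave a log2 FC of -0.10 (SE 0.19, FDR-adjusted p = 0.815). The activators gave -0.48 for MAP2K3 (SE 0.29, FDR-adjusted p = 0.381) and 0.42 for MAP2K6 (SE 0.45, FDR-adjusted p = 0.645). The direction of MAPK12 turned with 1 tumor left out, to -0.54 without tumor 3 of PPGL group 1 and to -0.00294 without tumor 10 of PPGL group 2, and it was -1.16 without the 4 tumors low in TH or CHGB. The others kept their sign with 1 tumor left out, at -1.02 to -0.54 for MAPK13, -0.18 to -0.0260 for MAPK14 (the latter without tumor 3 of PPGL group 1), -0.56 to -0.30 for MAP2K3 (the latter without tumor 7 of PPGL group 1) and 0.16 (without tumor 2 of PPGL group 1) to 0.65 for MAP2K6. Cortical markers were lower in group 1 for 9 of 10 genes, with summed levels of 52.0 to 1164 CPM in group 1 and 245 to 32184 CPM in group 2, and their part in these values was not tested beyond the covariate. With it, the log2 FC between the groups was -3.02 (SE 2.13) for MAPK12, -0.20 (SE 0.79) for MAPK13, -0.52 (SE 0.36) for MAPK14, -0.14 (SE 0.53) for MAP2K3 and -0.25 (SE 0.96) for MAP2K6. The covariate ran from -0.294 to 3.85 in group 1 and from 3.35 to 10.0 in group 2. As it nearly separates the groups, cortical tissue and group cannot be told apart in these fits.

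Whether the 5 genes vary together was examined over the 19 PPGLs on log2 CPM, as 10 pairs with two-sided permutation p. After Benjamini-Hochberg adjustment over the 10 pairs, 0 were below 0.05. The closest was the inverse relation of MAPK13 and MAP2K6, with Pearson r = -0.592 (permutation p = 0.00823, adjusted 0.0823) and Spearman rho = -0.623 (permutation p = 0.00542, adjusted 0.0542). The sign of r was the same in PPGL group 1 (r = -0.606) and PPGL group 2 (r = -0.569), without the 2 tumors farthest in MAPK13 (r = -0.460) and without the 4 tumors low in TH or CHGB (r = -0.545). In the NAMs r was 0.186. MAPK12 and MAP2K6, both higher in PPGLs, had r = 0.214 (permutation p = 0.382, adjusted 0.590) and rho = 0.226 (permutation p = 0.348, adjusted 0.498) over the tumors. Their r was 0.847 in PPGL group 1, -0.323 in PPGL group 2 and -0.0357 without the 2 tumors farthest in MAPK12, so no single relation held over the tumors. The neighbors MAPK13 and MAPK14 had r = 0.0222 over the tumors (permutation p = 0.928, adjusted 0.938; rho = 0.142, permutation p = 0.559, adjusted 0.699). Their r was -0.485 in PPGL group 1, 0.263 in PPGL group 2 and 0.318 without the 2 tumors farthest in MAPK13, and over the 10 NAMs it was 0.798.

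By a rule of likeness, the 3 named genes with the highest Spearman rho to each gene over the 19 PPGLs were taken from 12805 candidates, with no test. For MAPK12 these were the zinc finger factor MAZ (rho = 0.744), ARL10 (0.730) and PLPPR3 (0.713). MAPK13 varied most like TMEM69 (rho = 0.800), the secreted glutathione peroxidase GPX3 (0.786) and SUSD1 (0.781), and MAPK14 most like the phospholipid flippase ATP8A1 (rho = 0.814), RBBP5 of histone methyltransferase complexes (0.732) and the ephrin EFNA5 (0.721). MAP2K3 varied most like the chemokine CCL3 (rho = 0.816), the growth factor HBEGF (0.814) and the homeobox factor HHEX (0.802). Of these, HBEGF had a rho of 0.179 in PPGL group 1 and 0.867 in PPGL group 2. For MAP2K6 they were the mRNA export factor GLE1 (rho = 0.837) and, with roles in centriole and kinetochore, SASS6 (0.826) and CENPO (0.807).

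Position was not used to choose the genes, so their neighbors within 100 kb were looked at. Of 20 other genes in these windows, 16 were tested between PPGLs and NAMs, 4 rose and 3 fell, beside 22.3% and 15.2% of all genes tested. Around MAPK12 lie 13 of them, of which 11 were tested. PANX2, a pannexin channel, ranged from 6.71 to 17.8 CPM in NAMs (median 9.06) and from 1.96 to 41.4 CPM in PPGLs (median 23.6), and rose by a log2 FC of 1.17 (SE 0.32, FDR-adjusted p = 0.00479). HDAC10, a deacetylase of polyamines which begins 825 bp after MAPK12 on the same strand, rose by a log2 FC of 0.65 (SE 0.18, FDR-adjusted p = 0.00559) and exceeded every NAM in 13 of 19 PPGLs. PLXNB2, a semaphorin receptor 12123 bp before MAPK12, fell by 0.81 on the log2 scale (SE 0.13, FDR-adjusted p = 2.77e-05) and was below every NAM in 18 of 19 PPGLs. With the cortical covariate, HDAC10 (0.45, FDR-adjusted p = 0.213) and PLXNB2 (-0.46, FDR-adjusted p = 0.0634) were no longer past the threshold.

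The other 2 that rose carry no gene name, and whether either is MAPK11 was not tested. ENSCAFG00000049665, which ends 2067 bp before MAPK12 on the same strand, lay between 10.7 and 55.6 CPM in the NAMs and between 9.39 and 147 CPM in the PPGLs, with a log2 FC of 1.02 (SE 0.40, FDR-adjusted p = 0.0436), a call lost without the 4 tumors low in TH or CHGB (0.75, FDR-adjusted p = 0.120). It was also lost in 3 groups in 1 fit (FDR-adjusted p = 0.0549), with no filter on low counts (0.0564), the Mann-Whitney U-test (0.133), the cortical covariate (0.334) and the replicate block (a log2 FC of 0.90), and in 14 of 29 fits with 1 sample left out. Here and below, the replicate block is the sample number, which does not pair the groups. A call lost with it therefore says nothing of a pairing in the design. ENSCAFG00000000697 was low, at up to 0.457 CPM in the NAMs and between 0.0444 and 4.88 CPM in the PPGLs, with a log2 FC of 2.11 (SE 0.62, FDR-adjusted p = 0.00765) that was not past the threshold with the replicate block (1.51, FDR-adjusted p = 0.0690) or the cortical covariate (1.70, FDR-adjusted p = 0.161). The selenoprotein gene SELENOO overlaps the whole of MAPK12 on the opposite strand but shares 0 bases of exon with it, and it had a log2 FC of 0.11 (SE 0.12, FDR-adjusted p = 0.517). PPP6R2, DENND6B, TUBGCP6, TRABD and ENSCAFG00000049125 were not past the threshold, with a log2 FC between -0.77 and 0.23, and U2 and MOV10L1 were not tested. The strand setting of the read counting is not given in the sources used here, so reads in overlapping genes on opposite strands may not have been told apart.

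**Figure D3:**
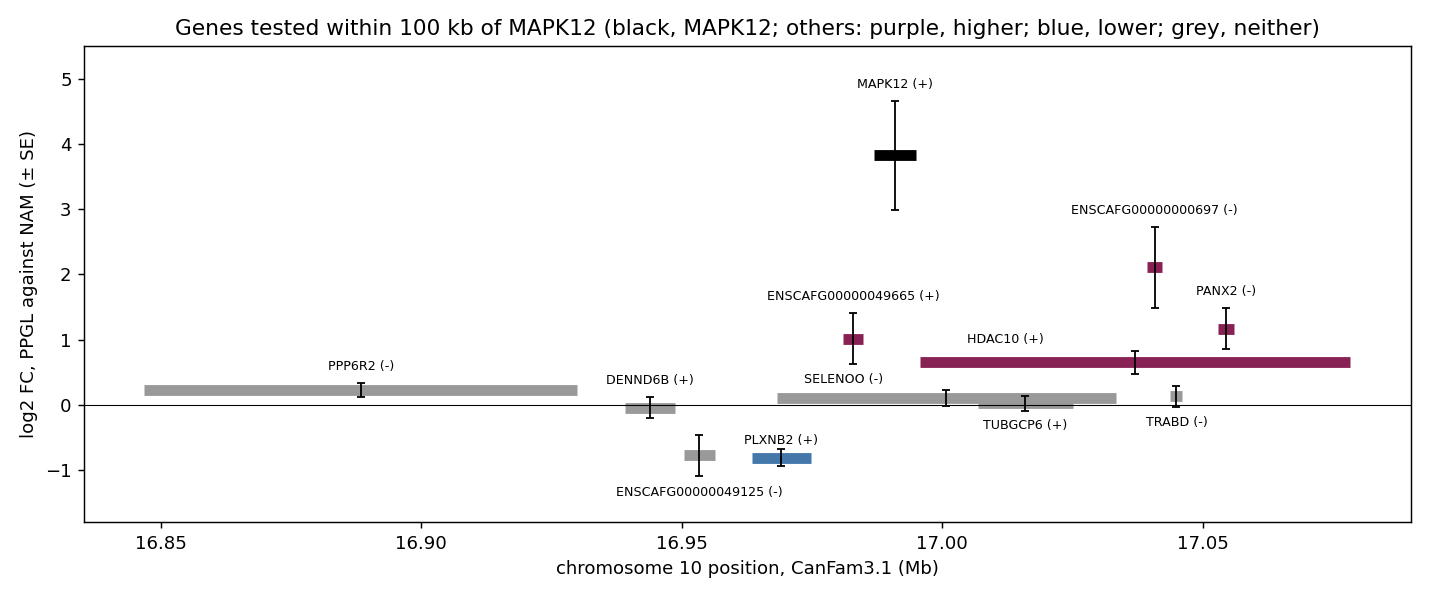
log2 FC of PPGLs against NAMs (vertical axis, ± SE) for MAPK12 and the 11 genes tested within 100 kb of it, drawn at their positions on chromosome 10 of CanFam3.1 (horizontal axis, Mb), with the strand in brackets. MAPK12 (black, 3.82) stood above its neighbors, of which 4 rose (purple), PLXNB2 fell (blue) and the others were not past an FDR-adjusted p of 0.05 (grey).

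Near MAP2K3, the reductase gene DHRS7B fell by 0.63 on the log2 scale (SE 0.15, FDR-adjusted p = 0.00140) and the mitochondrial membrane gene TMEM11 fell by 0.39 (SE 0.11, FDR-adjusted p = 0.00836), so that both genes on its 5' side were lower along with it. With the cortical covariate, DHRS7B was at -0.98 and TMEM11 at -0.47, the latter not past the threshold (FDR-adjusted p = 0.0518). The potassium channel gene KCNJ12 on the other side had a log2 FC of 0.63 (SE 0.35, FDR-adjusted p = 0.159). By MAPK13 and MAPK14, BRPF3 had a log2 FC of -0.18 (SE 0.16, FDR-adjusted p = 0.400), and SLC26A8, at up to 0.203 CPM in the NAMs and up to 20.9 CPM in the PPGLs, was not tested. By MAP2K6, ABCA5 had a log2 FC of 0.02 (SE 0.27, FDR-adjusted p = 0.969) and ENSCAFG00000041069 was not tested. Between the PPGL groups, 17 of the 20 neighbors were tested and edgeR's quasi-likelihood test called 0, with 2 under an unadjusted p of 0.05, 2 called by DESeq2 and 0 by the Mann-Whitney U-test. Of all genes tested, edgeR called 6.92%, while DESeq2 called 1793 genes and the Mann-Whitney U-test 299.

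The other genes of the pathway were taken from 6 lists of 73 genes by role, of which 70 were found (MAPKAPK2, RPS6KA4 and CCL2 were not found under these names) and 67 were tested between PPGLs and NAMs. Of these, 11 rose, 4 fell and 52 were not past an FDR-adjusted p of 0.05, beside 22.3% and 15.2% of all genes. Their median log2 FC was 0.15, beside 0.13 over all genes tested. Without the 4 tumors low in TH or CHGB, 12 rose and 4 fell. The counts were 7 and 4 with no filter on low counts, 7 and 6 with the replicate block, 8 and 3 with the cortical covariate and 8 and 7 by the Mann-Whitney U-test.

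Upstream, among 15 MAP3 kinases and partners, 1 rose, 2 fell and 12 did not pass, with a median log2 FC of -0.04. GADD45B, a stress-induced partner of MAP3K4, ranged from 4.91 to 13.2 CPM in NAMs (median 5.85) and from 3.85 to 104 CPM in PPGLs (median 14.7), and rose by a log2 FC of 1.95 (SE 0.46, FDR-adjusted p = 0.00159). MAP2K4 encodes MKK4, an activator of JNK that can also act on p38, and NAMs had 20.8 to 34.6 CPM of it (median 27.3) while PPGLs had 8.75 to 20.5 CPM (median 13.7). All 19 PPGLs lay below every NAM, and it fell by 1.00 on the log2 scale (SE 0.12, FDR-adjusted p = 5.52e-07). MAP3K20, the ZAK kinase that responds to stalled ribosomes, fell by 1.20 (SE 0.36, FDR-adjusted p = 0.0104) and was below every NAM in 14 of 19 PPGLs. MAP3K5 (ASK1), the kinase of oxidative stress, was below every NAM in 14 PPGLs and above in 2, with a log2 FC of -0.78 (SE 0.39, FDR-adjusted p = 0.116). It was past the threshold by the Mann-Whitney U-test (FDR-adjusted p = 0.0169) and with the sample number as a replicate block (-1.18, FDR-adjusted p = 0.0369). With the cortical covariate, the values were 2.82 for GADD45B, -1.01 for MAP2K4, -2.28 for MAP3K20 and -1.49 for MAP3K5 (FDR-adjusted p = 0.0670).

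Of 12 phosphatases that act on p38, 3 rose and 9 did not pass, with a median log2 FC of 0.29. PTPN5, the striatum-enriched tyrosine phosphatase, rose by a log2 FC of 1.73 (SE 0.61, FDR-adjusted p = 0.0249), DUSP8 by 0.98 (SE 0.37, FDR-adjusted p = 0.0378) and the p53-induced phosphatase gene PPM1D by 0.55 (SE 0.21, FDR-adjusted p = 0.0422). They lay above every NAM in 9, 10 and 4 of 19 PPGLs, and the call of PTPN5 was lost by the Mann-Whitney U-test (FDR-adjusted p = 0.0616) but not with the cortical covariate (2.53). DUSP8 and PPM1D lost theirs with the cortical covariate (0.77 and 0.38), with no filter on low counts (0.95 and 0.53) and by the Mann-Whitney U-test, DUSP8 also with the replicate block (0.87) and PPM1D also without the 4 tumors low in TH or CHGB (0.46). With 1 sample left out, the call of DUSP8 was lost in 11 of 29 fits and that of PPM1D in 12. DUSP1, the immediate-early p38 phosphatase, lay between 64.7 and 322 CPM in the NAMs (median 157) and between 22.9 and 592 CPM in the PPGLs (median 153), with a log2 FC of -0.03 (SE 0.41, FDR-adjusted p = 0.967).

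Downstream, of 16 kinases and transcription factors tested, 2 rose, 2 fell and 12 did not pass, with a median log2 FC of 0.04. MAPKAPK5 (PRAK), a kinase activated by p38, lay between 206 and 742 CPM in the NAMs (median 460.5) and between 32.6 and 291 CPM in the PPGLs (median 109). It fell by 1.85 on the log2 scale (SE 0.25, FDR-adjusted p = 3.73e-06) and was below every NAM in 16 of 19 PPGLs. MEF2C, a transcription factor of muscle and nerve that p38 phosphorylates, fell by 1.21 (SE 0.25, FDR-adjusted p = 0.000493), a call lost with the cortical covariate (-0.75, FDR-adjusted p = 0.142). ZFP36, whose product marks AU-rich mRNAs for decay unless p38 signaling holds it back, rose by a log2 FC of 2.36 (SE 0.59, FDR-adjusted p = 0.00253) and exceeded every NAM in 11 of 19 PPGLs, while the Mann-Whitney U-test gave an FDR-adjusted p of 0.0512. DDIT3 (CHOP), a factor of the unfolded protein response, rose by 0.64 (SE 0.25, FDR-adjusted p = 0.0418) and lost the call, at a value of 0.62 with no filter on low counts (FDR-adjusted p = 0.0574), 0.78 with the cortical covariate (0.132) and 0.53 with the replicate block (0.175), and in 12 of 29 fits with 1 sample left out. MAPKAPK3, a close relative of the kinase encoded by MAPKAPK2, had a log2 FC of -0.50 (SE 0.24, FDR-adjusted p = 0.0965) and was past the threshold with 3 groups in 1 fit (-0.67, FDR-adjusted p = 0.0119) and by the Mann-Whitney U-test (0.0345). With the cortical covariate, it was at -0.0982 (FDR-adjusted p = 0.881), MAPKAPK5 at -1.47 and ZFP36 at 3.21.

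Of 7 scaffolds and PDZ partners, 2 rose and 5 did not pass, with a median log2 FC of 0.34. The scaffold gene MAPK8IP2 rose by a log2 FC of 0.60 (SE 0.20, FDR-adjusted p = 0.0176) and SUPT20H by 0.45 (SE 0.16, FDR-adjusted p = 0.0308). MAPK8IP2 was not past the threshold with the cortical covariate (0.43, FDR-adjusted p = 0.286), nor was SUPT20H with that covariate (0.47, FDR-adjusted p = 0.153), the replicate block (0.45, FDR-adjusted p = 0.0763), no filter on low counts (0.43, FDR-adjusted p = 0.0506) or either NAM 1 or NAM 8 left out (FDR-adjusted p up to 0.0548).

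Of 7 inflammatory transcripts found that p38 is known to stabilize, 4 were tested, and 2 rose and 2 did not pass, with a median log2 FC of 1.57. The cytokine gene IL6 was at up to 0.764 CPM in the NAMs (median 0.225) and up to 116 CPM in the PPGLs (median 1.92), a log2 FC of 5.87 (SE 1.32, FDR-adjusted p = 0.000922) with 13 of 19 PPGLs above every NAM (7.41 with the cortical covariate). PTGS2, which encodes the inducible cyclooxygenase, lay between 0.130 and 9.27 CPM in the NAMs (median 3.33) and between 0.177 and 151 CPM in the PPGLs (median 3.19). Its medians were alike, and its log2 FC of 2.49 (SE 0.98, FDR-adjusted p = 0.0440) went with 6 PPGLs above every NAM, all in PPGL group 2. In PPGL group 1 the median was 0.403 CPM, and the highest level, 3.19 CPM, lay below the NAM median. The call was lost by the Mann-Whitney U-test (FDR-adjusted p = 0.722) and with no filter on low counts (0.0529). The value ran from 0.76 with 3 groups in 1 fit (FDR-adjusted p = 0.416) and 0.85 with the replicate block (0.539) to 4.45 with the cortical covariate (0.0222), and with 1 sample left out the call was lost in 14 of 29 fits. Markers of neutrophils (4 of 4, median log2 FC 4.22), T and NK cells (4 of 4, 2.06) and fibroblasts (5 of 7, 2.43) were also higher in PPGLs. Tumor 11 of PPGL group 2 had the highest sums of these lists, at 1244 CPM for neutrophils, 107 CPM for T and NK cells and 25436 CPM for fibroblasts. The PPGL medians were 352, 7.63 and 671 CPM. Without this tumor, the log2 FC was 5.23 for IL6 and 1.85 for PTGS2. The part of such cells in IL6 and PTGS2 was not tested. IL1B, TNF and CSF2 were not tested.

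Of 13 other MAP kinases and MAP2 kinases, 1 rose and 12 did not pass, with a median log2 FC of 0.15; MAP2K4, which fell, is counted above with the genes upstream of p38. NLK, a MAP kinase-like kinase known from Wnt signaling, rose by a log2 FC of 1.04 (SE 0.18, FDR-adjusted p = 5.77e-05) and exceeded every NAM in 17 of 19 PPGLs, with 0.69 (FDR-adjusted p = 0.0389) under the cortical covariate.

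**Figure D4:**
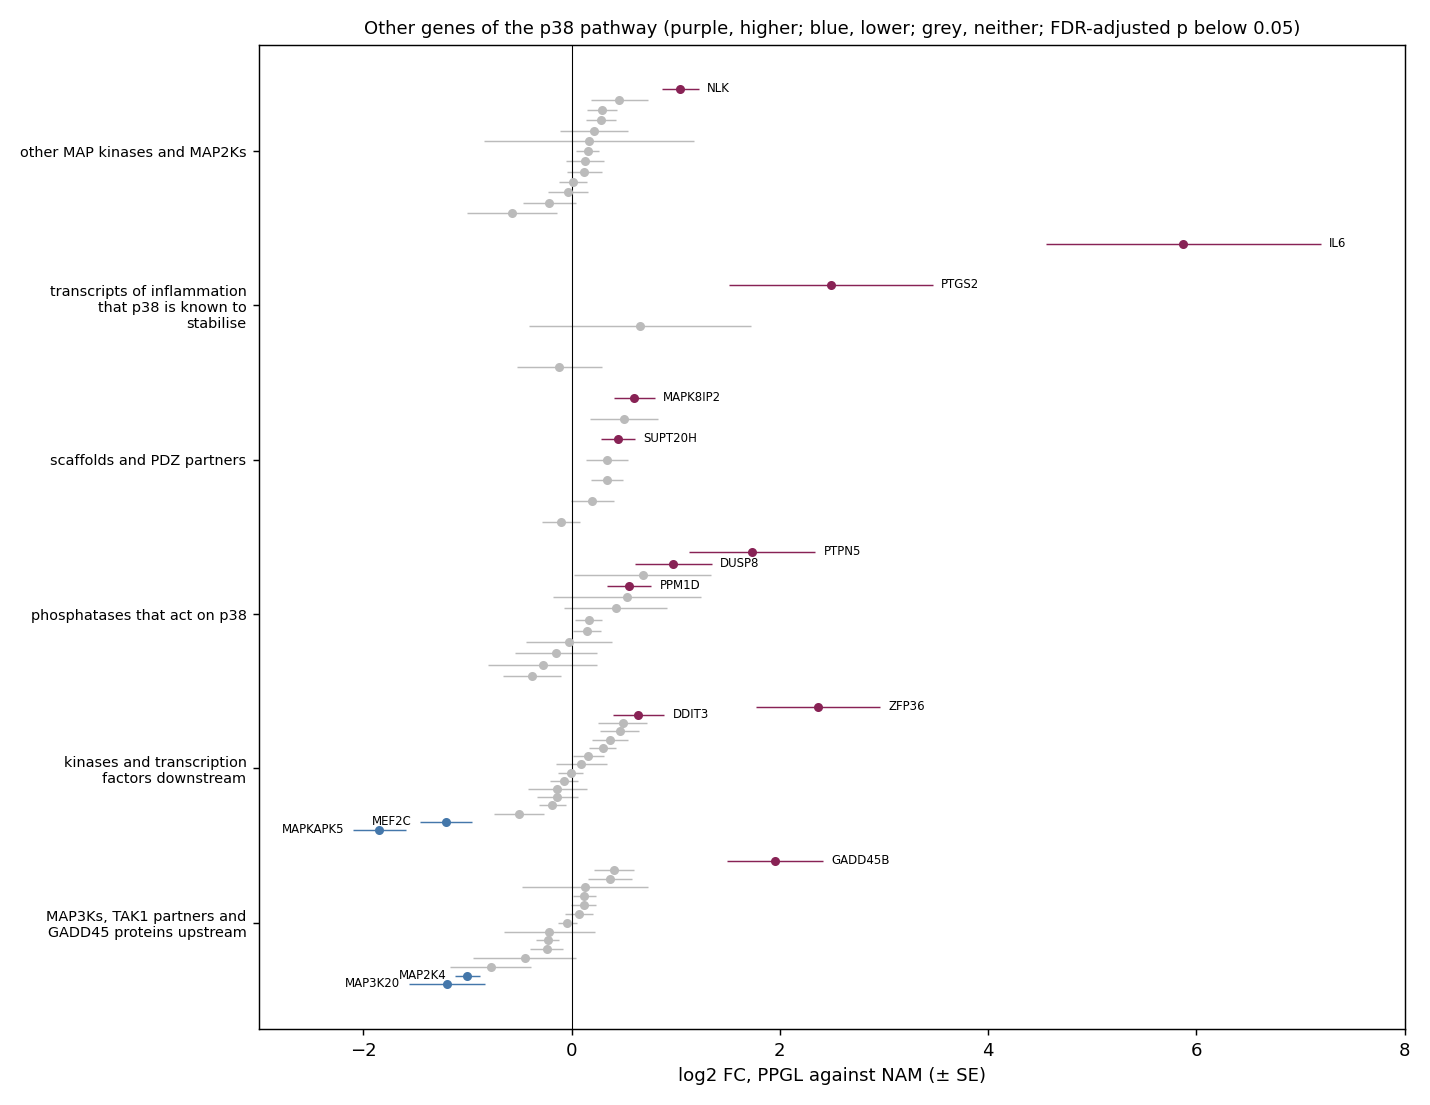
log2 FC of PPGLs against NAMs (horizontal axis, ± SE) for the 67 other pathway genes tested, ordered within the 6 lists by role (vertical axis). The 11 genes that rose (purple) and the 4 that fell (blue) at an FDR-adjusted p below 0.05 are named, and the 52 others are grey.

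Between the PPGL groups, 67 of the pathway genes were tested, 5 were lower in group 1, 0 were higher and 62 did not pass an FDR-adjusted p of 0.1, beside 2.95% of all genes tested as lower and 3.97% as higher. Their median log2 FC was -0.17, beside 0.04 over all genes tested. Lower in group 1 were the phosphatase genes DUSP4, by a log2 FC of -2.69 (SE 0.68, FDR-adjusted p = 0.0366), and DUSP16, by -1.09 (SE 0.32, FDR-adjusted p = 0.0633). GADD45B was lower by -1.79 (SE 0.53, FDR-adjusted p = 0.0644). The inflammatory transcripts PTGS2, at a median of 0.403 CPM in group 1 (highest 3.19) and 13.1 CPM in group 2 (highest 151), and CXCL8, at 1.32 CPM (highest 30.0) and 33.0 CPM (highest 1793), were lower by -4.73 (SE 1.12, FDR-adjusted p = 0.0269) and -5.16 (SE 1.47, FDR-adjusted p = 0.0582). With the 15 tumors left when those low in TH or CHGB were set aside, the log2 FC was -3.07 for DUSP4, -0.92 for DUSP16, -2.08 for GADD45B, -5.45 for PTGS2 and -6.74 for CXCL8, at an FDR-adjusted p of 0.105 to 0.276. With the cortical covariate, the values were larger, at -3.25, -1.39, -2.72, -5.94 and -7.88 in the same order, and not past the threshold (FDR-adjusted p of 0.111 to 0.398). That covariate nearly separates the groups, so neither the larger values nor the lost calls tell cortical tissue and group apart. With the replicate block they were -2.81, -1.11, -1.31, -3.70 and -3.46, also not past it (0.249 to 0.525), and by the Mann-Whitney U-test DUSP4 alone was. With 1 tumor left out, PTGS2 and DUSP4 stayed past it, while GADD45B did not without tumor 4 or 7 of PPGL group 1 or tumor 4 of PPGL group 2 (FDR-adjusted p up to 0.135), DUSP16 without tumor 3 or 7 of PPGL group 1 (up to 0.129) and CXCL8 without tumor 7 of PPGL group 1 (0.116). CXCL8 ran from -6.37 to -3.84 in these fits, the latter without tumor 11 of PPGL group 2. Leaving out 1 sample was chosen for the neighbors and the pathway genes after seeing the data. Cortical markers were lower in group 1 as well, as given above. Of 4 neutrophil markers, S100A12 (-3.62, SE 1.17, FDR-adjusted p = 0.0903) and CSF3R (-4.34, SE 1.40, FDR-adjusted p = 0.0899) were also lower in group 1, and their summed level, mostly S100A8, was 62.5 to 938 CPM in group 1 (median 278) and 71.7 to 1244 CPM in group 2 (median 605). The part of such cells in PTGS2 and CXCL8 was not tested. MAP2K4, lower than every NAM in all tumors, had a log2 FC of 0.03 between the groups (SE 0.19, FDR-adjusted p = 0.958).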

How the data were processed

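The authors deposited 1 table of read counts on the exons of each gene, from single-end reads of a stranded mRNA kit, and the submitters' notes name FastQC, STAR, Picard, HTSeq and the build CanFam 3.1. The counts were whole numbers and were not normalized. Genes were filtered with filterByExpr (minimum count 10, total 15), scaled by TMM and tested in edgeR 4.0.16 (R 4.3.3) with the quasi-likelihood F test and Benjamini-Hochberg adjustment over all genes tested; log2 FCs used a prior count of 0.125. DESeq2 1.42.0, a Mann-Whitney U-test, other scalings and filters, 3 groups in 1 fit, a replicate block, a cortical covariate and leaving out each sample were alternatives. CPM are TMM-normalized, and correlations used log2 CPM with a prior count of 2 and 100000 permutations (Python 3.11.15, scipy 1.17.1). The main quasi-likelihood test and the permutation p were tested on simulated data, and the other steps were not. Since MAPK11 was not found by name, 10 pairs were correlated instead of the planned 15. No pair of libraries of a group agreed within sampling noise. The lists' counts and sums leave out 4 genes that are not reported. The genes and lists were chosen with earlier results of these data known. Outside the naming rule that follows, TH, DDC, DBH, PNMT, SLC18A2, ACTA1, COL1A2 and CLDN4 are also named. Named are the 5 genes, their neighbors within 100 kb, up to 4 genes a list and direction past the threshold, 5 pathway genes fixed by name, the 3 genes most alike to each, and, of each cell type list, the most abundant gene and those at 3 counts or fewer throughout.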

Additional observations from a re-analysis of the deposited data

Results flagged for a closer look

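In groups of up to 10 samples, a sample was picked out when its gap to the nearest other was a large part of the group's range on the log2 CPM scale, and chance picks about 1 in 20 of the 84 groups examined. Among the p38 genes, MAP2K3 in tumor 7 of PPGL group 1 was the lowest of its group at a log2 CPM of 3.83, where the next tumor had 5.59, and MAP2K6 in NAM 3 was the lowest NAM at -2.08, where the next had -0.50, from 4 counts. Leaving out either sample kept the sign of the respective log2 FC.

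Among neighbors, ENSCAFG00000049125 was lowest in NAM 10 at a log2 CPM of -0.85 (next 0.03) and TUBGCP6 was highest in NAM 4 at 5.78 (next 5.57). Among pathway genes, GADD45B was highest in NAM 2 at a log2 CPM of 3.73 (next 2.99) and DUSP16 was highest in NAM 3 at 6.28 (next 5.29). Tumor 7 of PPGL group 1 had the lowest DDIT3 of its group, at a log2 CPM of 2.61 (next 4.94), and the highest PPM1D, at 5.85 (next 4.95).

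Between PPGL group 1 and group 2, a difference past an FDR-adjusted p of 0.1 was found for 5 pathway genes, with a log2 FC of -1.79 for GADD45B, -2.69 for DUSP4, -1.09 for DUSP16, -4.73 for PTGS2 and -5.16 for CXCL8. The 5 p38 kinase and activator genes were not among them.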

How the results depend on the processing

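Against NAMs, each p38 kinase and activator gene kept its sign when any 1 sample was left out, and the log2 FC ranged from 3.58 to 3.98 for MAPK12, 0.30 to 0.52 for MAPK13, 0.03 to 0.13 for MAPK14, -0.96 to -0.80 for MAP2K3 and 1.68 to 1.97 for MAP2K6, with 4954 to 5790 genes past the threshold. With the cortical score as a covariate, MAP2K3 (-0.39), MAP2K6 (1.37), PLXNB2 (-0.46), ENSCAFG00000049665 (0.77), HDAC10 (0.45), ENSCAFG00000000697 (1.70) and TMEM11, with a larger value (-0.47) and a larger error, were no longer past the threshold, and the sign turned for BRPF3 (0.0877), DENND6B (0.43) and DUSP1 (0.67), with 2170 genes past the threshold. With library size alone, DENND6B (0.0279) and DUSP1 (0.0699) turned and PPP6R2 (0.30) passed. Without the 4 tumors low in TH or CHGB, an alternative chosen after seeing the data, DENND6B (0.0462) and DUSP1 (0.0789) turned and ENSCAFG00000049665 (0.75) no longer passed. ENSCAFG00000049125 passed with DESeq2 size factors (-0.79), DESeq2 (-0.80), 3 groups in 1 fit (-0.95) and the Mann-Whitney U-test (-0.77). ENSCAFG00000049665 did not pass with no filter (0.99), 3 groups in 1 fit (0.98) and the Mann-Whitney U-test (1.02), TUBGCP6 turned to -0.00154 with 3 groups in 1 fit, 7 pathway genes were lower by the Mann-Whitney U-test, and 7 were higher with no filter. The cause was not tested.

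With the sample number as a replicate block, MAPK14 turned to -0.0149, and ENSCAFG00000049665 (0.90) and ENSCAFG00000000697 (1.51) no longer passed, and 7 pathway genes were higher. Between the PPGL groups, the replicate block gave -0.46 for MAPK12, 47 genes past the threshold and 0 pathway genes higher and 0 lower. The sample numbers do not pair the groups, with r between -0.232 and 0.251 for samples of 1 number.

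Between the PPGL groups, MAPK12 turned with the cortical score (-3.02) and without the 4 tumors (-1.16), and ranged from -0.54 (without tumor 3 of group 1) to 0.56 (without tumor 7 of group 2) with 1 tumor left out, with -0.00294 without tumor 10 of group 2. MAP2K6 turned with the cortical score (-0.25) and MAP2K4 without the 4 tumors (-0.0172). Genes past the threshold numbered 2567 with 3 groups in 1 fit, 101 with the cortical score, 1793 with DESeq2, 299 by the Mann-Whitney U-test, 303 when the 4 tumors were left out, and 525 (without tumor 7 of group 1) to 1218 (without tumor 1 of group 1) with 1 tumor left out, with 674 without tumor 4 of group 2. Pathway genes higher in group 1 numbered 1 with DESeq2, 0 by the Mann-Whitney U-test, 6 with 3 groups in 1 fit, 0 with the cortical score and 1 with library size alone. Pathway genes lower numbered 10 with DESeq2, 1 by the Mann-Whitney U-test, 10 with 3 groups in 1 fit, 0 with the cortical score and 0 without the 4 tumors. The r of MAPK12 with MAP2K6 was 0.847 in group 1 and -0.323 in group 2, that of MAPK13 with MAPK14 was -0.485 in group 1 and 0.318 without the 2 farthest tumors, and that of MAPK14 with MAP2K6 was 0.477 in group 1. The cause was not tested.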

Other observations

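Markers of other cell types were read from lists. Over all lists, 25 of 71 genes tested were higher and 15 lower in PPGLs, beside 22.3% and 15.2% of all genes. Each summed level is a median over 10 NAMs and over 19 PPGLs. The gene named had the highest mean of its list over all 29 samples, whether or not it was past the threshold. Higher were 4 of 7 genes of smooth muscle and pericytes (821 and 1659 CPM, RGS5 the most abundant), 2 of 3 of epithelium (82.0 and 97.3 CPM, EPCAM), 4 of 4 of T and NK cells (3.55 and 7.63 CPM, CD2) and 1 of 3 of B and plasma cells (487 and 410.3 CPM, CD79A). The summed level of B and plasma cells was thus lower in PPGLs by its median. EPCAM was not past the threshold, and CLDN4, of the same list but not tested, lay below every NAM in 16 of 19 PPGLs. Also higher were 4 of 4 of neutrophils (60.5 and 352 CPM, S100A8), 5 of 7 of fibroblasts (413 and 671 CPM, COL3A1) and 3 of 3 of erythroid cells (3.33 and 11.0 CPM, EPOR). COL3A1 averaged 95.8 CPM in NAMs and 818 CPM in PPGLs, with 7960 CPM in tumor 11 of PPGL group 2. Every NAM had more COL1A2 than COL3A1. Lower were 1 of 6 of macrophages and monocytes (574 and 366 CPM, C1QB) and 3 of 6 of endothelium (622 and 384 CPM, PECAM1), and the 3 tested of Schwann and sustentacular cells did not pass (37.5 and 18.7 CPM, ERBB3).

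Between each of the 5 p38 genes and the mean of each marker list, 65 relations were computed over the 19 PPGLs, chosen after seeing the data. The smallest adjusted permutation p was 0.352 for Pearson r and 0.114 for Spearman rho, the latter for MAP2K6 with the chromaffin list (rho = -0.681, permutation p = 0.00176). Their part in the levels of the p38 genes was not tested beyond this.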
